A study of Mus musculus with 6 samples.

Results

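The genes described here are 10 genes of the alveolar type 2 cell, the cell of the lung alveolus that makes pulmonary surfactant: Sftpc, Sftpb, Sftpa1, Sftpd, Abca3, Lamp3, Slc34a2, Napsa, Lpcat1 and Etv5. They were taken by name from a table of 49568 genes. The study set lungs of mice labelled Col6a1-/- against those of wildtype mice. Col6a1 codes for 1 chain of the matrix protein collagen VI, and the sources used here do not say which part of the gene the allele removes. All animals were 6 weeks old and labelled C57BL/6, and RNA came from right lung lobes that were snap-frozen after PBS perfusion. Each of the 3 libraries of a genotype held RNA pooled from 2 animals, each animal in 1 pool, so an SD or a p-value measures the spread between pools. The sex of the animals was not in the labels.

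Surfactant is a film of phospholipid and protein that lowers surface tension at the air-liquid interface. Its lipids, chiefly phosphatidylcholine, are loaded into lamellar bodies together with the hydrophobic proteins encoded by Sftpb and Sftpc and are then secreted. The proteins encoded by Sftpa1 and Sftpd are collectins, water-soluble lectins with a collagen-like stretch that bind microbes. Used surfactant is taken back by type 2 cells or degraded by alveolar macrophages under the control of GM-CSF. Type 2 cells also serve as stem cells that give rise to the flat type 1 cells lining most of the alveolus. The transcription factor NKX2-1 drives many of these genes.

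The libraries held 28055414 to 37904878 reads in genes, and the values below are counts normalized by the authors with a size factor per library. Col6a1 itself stood at 49.5% of the wildtype mean, with no overlap between the genotypes (limma log2 fold change -1.01, adjusted p 0.00643). The pools differed in sex. By the mean of 4 Y-linked genes, set to 100% in Col6a1-/- pool 2, the male share was 0.30%, 3.42% and 50.6% in wildtype pools 1, 2 and 3 and 73.6%, 100% and 51.6% in the Col6a1-/- pools. Xist stood at 28.4 normalized counts in Col6a1-/- pool 2 and at 10486 to 16430 in the remaining pools. The wildtype pools therefore held more RNA from females, and only wildtype pool 3 and Col6a1-/- pools 1 and 3 held RNA of both sexes in quantity. Genotype and sex cannot be fully told apart in this design, and estimates from a fit with the male share as a covariate are given where they differ by more than 1.5 times. In that fit 0 of all tested genes passed the limma threshold. A comparison of the pools of mixed sex alone rests on a single wildtype pool, pool 3, which is assumed there to vary like the Col6a1-/- pools.

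Promoter sequence was read for the genes with an entry in the RefSeq promoter table (GRCm38.p6), which gave 8 windows for 7 of the 10 genes. Sftpc, Sftpd and Napsa had no entry. The windows run from 250 bases before to 50 after a transcription start. Both strands were searched, and the 250 upstream bases of 4 genes are printed from 5′ to 3′ on the strand of the gene. Sftpb, Sftpa1 and Lamp3 are shown because they hold core sequences of NKX2-1 or of forkhead factors, and Abca3 because its estimate was the lowest of the 10 in the fit without covariates. Capitals mark the matches. The windows lie at chr6:72304360-72304609 (plus strand) for Sftpb, chr14:41131538-41131787 (plus) for Sftpa1, chr16:19706366-19706615 (minus) for Lamp3 and chr17:24351773-24352022 (plus) for Abca3.
Sftpb: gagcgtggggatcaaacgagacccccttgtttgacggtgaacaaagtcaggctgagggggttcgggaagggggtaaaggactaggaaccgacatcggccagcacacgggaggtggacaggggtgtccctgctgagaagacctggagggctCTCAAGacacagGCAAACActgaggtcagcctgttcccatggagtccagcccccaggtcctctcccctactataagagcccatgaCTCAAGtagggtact
Sftpa1: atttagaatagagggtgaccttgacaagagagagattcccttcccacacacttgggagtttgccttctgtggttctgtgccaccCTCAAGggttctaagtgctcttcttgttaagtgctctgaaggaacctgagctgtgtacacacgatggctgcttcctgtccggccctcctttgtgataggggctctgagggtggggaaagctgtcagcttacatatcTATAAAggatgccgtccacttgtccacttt
Lamp3: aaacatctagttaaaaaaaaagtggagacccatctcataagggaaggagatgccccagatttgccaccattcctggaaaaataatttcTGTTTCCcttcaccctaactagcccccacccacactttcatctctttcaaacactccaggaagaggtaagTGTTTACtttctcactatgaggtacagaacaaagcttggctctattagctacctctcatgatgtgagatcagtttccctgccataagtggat
Abca3: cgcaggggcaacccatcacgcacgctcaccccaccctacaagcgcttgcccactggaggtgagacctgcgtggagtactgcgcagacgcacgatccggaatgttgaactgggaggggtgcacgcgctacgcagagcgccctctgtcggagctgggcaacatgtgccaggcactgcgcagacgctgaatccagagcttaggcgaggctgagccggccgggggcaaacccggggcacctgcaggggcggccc

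The NKX2-1 core CTCAAG stood in the windows of Sftpb, starting at positions -100 and -15 from the transcription start, and of Sftpa1, starting at -166. It was present in 2 of the 8 windows and in 15.9% of all 32851 windows of the table. The forkhead sequence TGTTTNC was found on the minus strand of Sftpb at -88, 6 bases after the first NKX2-1 core ended, on the plus strand of Lamp3 at -162 and -92, and in a window of Etv5. It occurred in 3 of the 8 windows and in 20.5% of all. A TATAAA box stood at -30 in Sftpa1, 1 of the 8 windows against 13.6% of all. The C/EBP sequence TTGCNNAA was found in 1 of 8 windows, that of Slc34a2 at -48 (10.8% of all windows), and the ETS sequence GGAAGTG in 1, that of Etv5 (11% of all). TTGTGCAA, another C/EBP form, and a palindromic glucocorticoid receptor sequence were in none of the 8 and in 1.01% and 0.475% of all windows. Every match of TTGTGCAA is also a match of TTGCNNAA on the other strand. These are matches of letters, not sites of binding.

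The 10 genes ranked from 2 (Sftpc) to 1331 (Etv5) among all genes by mean count and together took 2.94% to 3.30% of all normalized counts in the wildtype libraries and 2.74% to 3.26% in the Col6a1-/- libraries. The mean share was 3.18% ± 0.206 in wildtype and 3.06% ± 0.281 in Col6a1-/- lungs (SD, n = 3 pools each), a difference smaller than either SD. Sftpc alone made up 1.46% to 1.88% of a library. The labelled tissue thus carried the defining genes of alveolar type 2 cells at high level in every library. Even Etv5, the least abundant of the 10, had at least 4097 reads in each library, so counting error was smaller than the spread between pools. All 10 passed the filter on low values.

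Per kilobase of the longest annotated transcript, the wildtype order of mean normalized counts was Sftpc (665532), Sftpb (93509), Sftpa1 (43114), Slc34a2 (19814), Sftpd (15754), Napsa (9445), Lamp3 (5109), Lpcat1 (4666), Abca3 (3927) and Etv5 (1211). Neighbours in this order did not overlap between genes over the 3 wildtype libraries, except Lamp3 and Lpcat1. The order was the same in the Col6a1-/- libraries, from 667012 for Sftpc to 1120.04 for Etv5 per kilobase, and there no neighbours overlapped.

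None of the 10 genes passed the limma threshold, an adjusted p of 0.05 over 16879 tested genes, and 11 genes in all did (0.0652%). At an unadjusted p under 0.05 stood 1 of the 10, Abca3, against 20.3% of all tested genes. In the authors' deposited table Abca3 was also the 1 of 10 below an adjusted p of 0.05 (5.05% of all genes with an adjusted p there), as it was with DESeq2 on the recovered reads (5.06% of all), and edgeR called 0 of 10 (0.077%). The log2 fold change was below 0 for 9 of the 10 genes, against 48.3% of all tested genes, with a median of -0.14 over the 10 and 0.01 over all. In 5 genes (Sftpa1, Sftpd, Abca3, Slc34a2 and Lpcat1) every Col6a1-/- library lay below every wildtype library, which held for 14.2% of all tested genes. The 10 genes come from the same cells in the same pools and are not independent of one another. Lung tissue was sequenced in bulk, so fewer type 2 cells and less RNA per cell cannot be told apart.

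**Figure D1:**
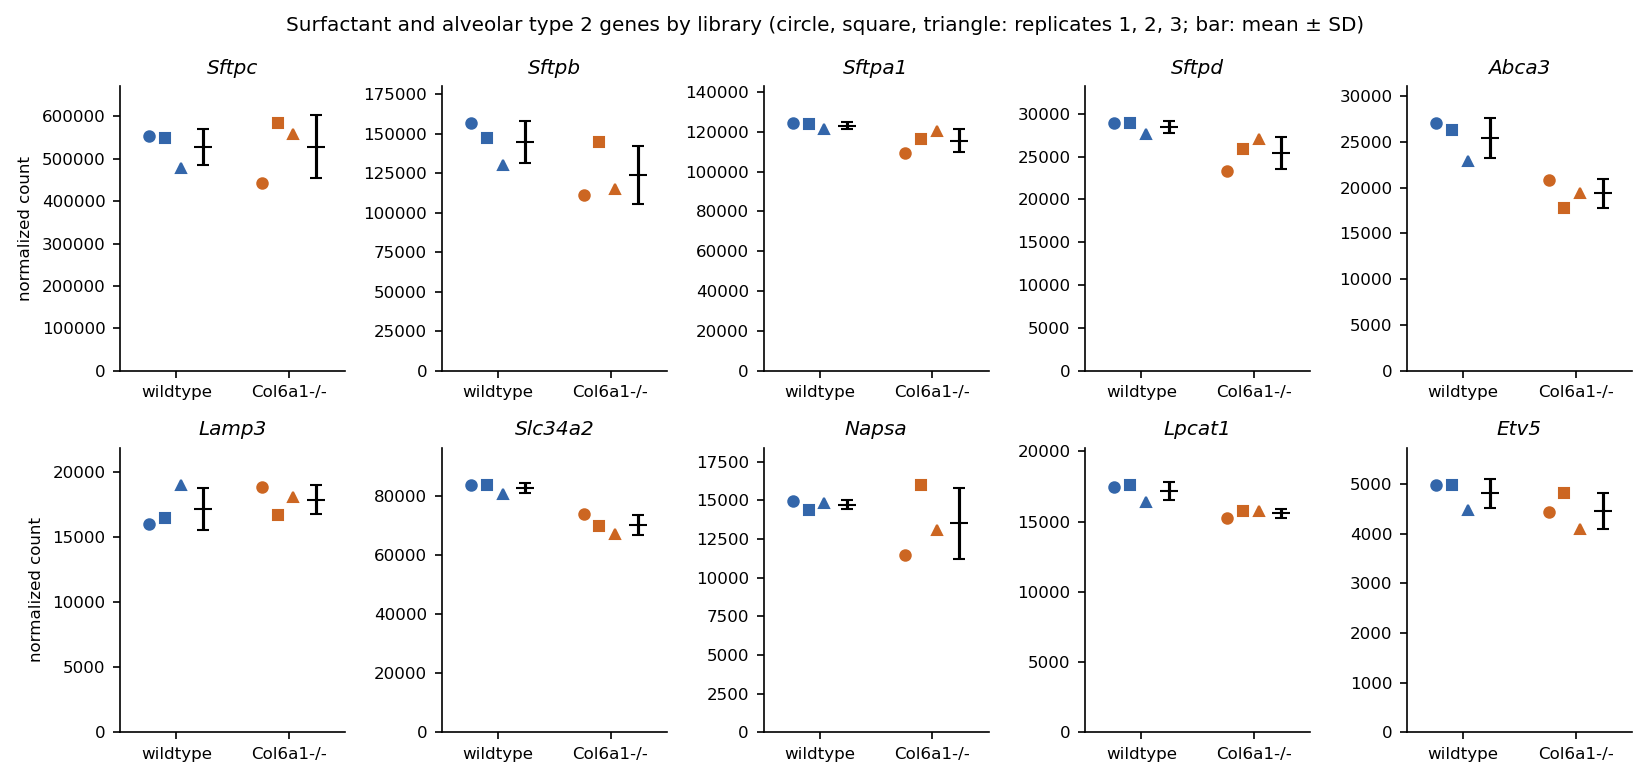
Normalized counts (linear axes from 0, separate scale per gene) of the 10 genes in the 3 wildtype and 3 Col6a1-/- libraries; each point is a pool of 2 animals and bars are the mean ± SD of 3. The genotypes do not overlap for Sftpa1, Sftpd, Abca3, Slc34a2 and Lpcat1, and the means of Sftpc are nearly equal (527102 and 528273).

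Among the hydrophobic surfactant proteins, Sftpc showed almost no difference in mean and Sftpb a lower mean with overlapping libraries. Sftpc (ENSMUSG00000022097.4, GRCm38 chromosome 14, 70520949 to 70524081, minus strand), which encodes the small membrane-spanning protein SP-C and is the most specific marker of type 2 cells, had normalized counts of 553122, 549499.5 and 478684 in wildtype pools 1, 2 and 3 and of 443498, 583425 and 557897 in Col6a1-/- pools 1, 2 and 3. The highest and the lowest of the 6 values were both from Col6a1-/- pools. The means were 527102 ± 41970.2 and 528273 ± 74519 (SD, n = 3 each). On the log2 scale they differed by -0.00 (SE 0.18, limma adjusted p 0.993). The 95% interval of the difference ran from 75.2% to 132% of wildtype.

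Sftpb (ENSMUSG00000056370.15, chromosome 6, 72304610 to 72314371, plus strand) encodes SP-B, without which surfactant films do not form and newborns die of respiratory failure. Its counts were 156657, 147559.5 and 130322 in the wildtype pools and 111283, 144718 and 114978 in the Col6a1-/- pools. Col6a1-/- pool 2 lay within the wildtype range and pools 1 and 3 below it. The Col6a1-/- mean was 85.4% of wildtype (log2 fold change -0.23, SE 0.15, limma adjusted p 0.392).

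The collectins Sftpa1 and Sftpd lie near each other on chromosome 14, and both were lower in every Col6a1-/- library by an amount that did not pass the test. Sftpa1 (ENSMUSG00000021789.14, 41131782 to 41136452, plus strand), which encodes SP-A, had counts of 124285, 123615 and 121243 in wildtype and 109269, 116388 and 120557 in Col6a1-/- pools. The wildtype pools lay close together, and the highest Col6a1-/- pool was just under the lowest of them. The mean was 93.8% of wildtype (log2 fold change -0.09, SE 0.12, limma adjusted p 0.68). Sftpd (ENSMUSG00000021795.10, 41172214 to 41185149, minus strand), which encodes SP-D, a protein that also regulates the surfactant pool and macrophages, had counts of 28902, 28903 and 27690.2 in wildtype and 23379.8, 25918 and 27038 in Col6a1-/- pools. All 3 Col6a1-/- values were again below all 3 wildtype values. The mean was 89.3% of wildtype (log2 fold change -0.17, SE 0.10, limma adjusted p 0.357).

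Sftpa1 and Sftpd belong to a wider family of lectins with collagen-like stretches. Of 12 such genes listed, 10 passed the filter on low values, Mbl2 and Fcnb did not, and 0 passed the limma threshold or stood at an unadjusted p under 0.05. With edgeR and DESeq2, 0 passed as well. C1qa, C1qb and C1qc, which encode the chains of complement C1q made mainly by macrophages, stood at 92.9%, 88.9% and 88.4% of wildtype with limma adjusted p of 0.605, 0.361 and 0.276. The estimate was below 0 for 7 of the 10. That of C1qa was -0.11, and -0.053 with the male share as a covariate.

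Abca3 had the lowest estimate of the 10 genes in the fit without covariates. With quantile normalization, with the length and GC trend removed and without Col6a1-/- pool 2 the lowest was Sftpb (-0.40, -0.29 and -0.35), and Napsa was lowest with the male share as a covariate (-0.30) and among the pools of mixed sex (-0.28). Abca3 encodes the ATP-binding cassette transporter that carries phosphatidylcholine into the lamellar body, and its loss in humans and mice causes fatal surfactant deficiency. Abca3 (ENSMUSG00000024130.16, chromosome 17, 24351950 to 24410201, plus strand) had counts of 27032, 26329 and 22937 in wildtype pools 1, 2 and 3 and of 20879, 17810.3 and 19401 in the Col6a1-/- pools. Wildtype pool 3 was the lowest wildtype value and still lay above all 3 Col6a1-/- pools, of which pool 2 was the lowest. The mean was 25433 ± 2190.1 in wildtype and 19364 ± 1535 in Col6a1-/- lungs (SD, n = 3 each), or 76.1%. On the log2 scale this was -0.39 (SE 0.11), with a 95% interval of 64.8% to 89.6% of wildtype. The unadjusted limma p was 0.00368, and the limma adjusted p of 0.111 missed the threshold. Of all tested genes, 5.84% had a lower estimate.

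The call on Abca3 depended on the model. The authors' deposited table gave a log2 fold change of -0.36 with an adjusted p of 0.0156, and DESeq2 on the recovered reads gave -0.39 with an adjusted p of 0.0156, whereas edgeR gave -0.40 with an adjusted p of 0.101. With library quality weights in limma the value was -0.43 with an adjusted p of 0.00853 (19.1% of all tested genes passed in that fit). Without wildtype pool 3 it was -0.47 with a limma adjusted p of 0.0294 (8.26% of all passed). With each other pool left out in turn the limma adjusted p ran from 0.0927 to 0.395. With the male share of the pools as a covariate the log2 fold change was -0.18 (limma adjusted p 0.787). Among the 3 pools of mixed sex alone, with 1 wildtype pool, it was -0.19 (limma adjusted p 0.773, with 2.02% of all tested genes past the threshold). Removal of the trend on transcript length and GC content gave -0.19 (limma adjusted p 0.269).

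The counts of the surfactant proteins were also set against Abca3 within each library. These ratios contain the values of Abca3 already given and are no independent evidence of its difference. The log2 ratio of Sftpc to Abca3 was 4.35, 4.38 and 4.38 in the wildtype pools and 4.41, 5.03 and 4.85 in the Col6a1-/- pools. The ratios did not overlap, and those of wildtype were nearly identical while those of Col6a1-/- spread widely. The difference of 0.39 had an exact permutation p of 0.1 (two-sided, n = 3 against 3), the smallest this design can give, so that no ratio could have reached 0.05, and an adjusted value of 0.267 over the 4 ratios computed. For Sftpa1, Sftpd and Sftpb over Abca3 the differences were 0.30, 0.23 and 0.16 with exact permutation p of 0.2, 0.2 and 0.7, and these ratios overlapped. The ratios were not corrected for the trend on transcript length and GC content described below. With that trend removed, the log2 fold changes of Sftpa1, Sftpd and Sftpb (-0.22, -0.22 and -0.29) were below that of Abca3 (-0.19). That of Sftpc was -0.07.

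**Figure D2:**
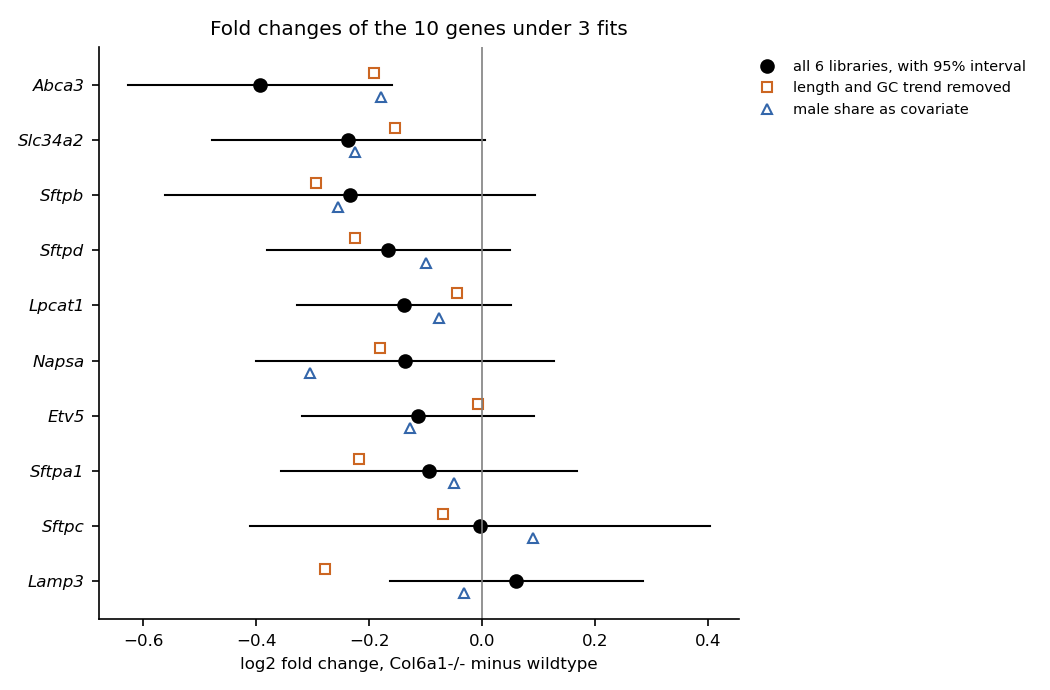
Log2 fold change of each of the 10 genes, Col6a1-/- against wildtype, from limma on log2(normalized count + 1) with its 95% interval over 3 pools per genotype, beside the estimates with the male share as a covariate (triangles) and with the length and GC trend removed (squares). Abca3 is the only gene whose interval lies wholly below 0 in the fit without covariates, and its estimate moves from -0.39 to -0.18 and -0.19 in the others.

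Lamp3, Napsa and Lpcat1 encode further proteins of the lamellar body or of surfactant assembly. Lamp3 (ENSMUSG00000041247.8, chromosome 16, 19653378 to 19706375, minus strand), which encodes a membrane protein of lamellar bodies, was the 1 of the 10 genes with an estimate above 0. Its counts were 15984, 16457 and 19001 in wildtype and 18822, 16672 and 18084 in Col6a1-/- pools, with full overlap. The mean was 104% of wildtype (log2 fold change 0.06, SE 0.10, limma adjusted p 0.759). The sign turned in other fits, to -0.03 with the male share as a covariate, -0.04 in the mixed-sex pools and -0.28 with the length and GC trend removed (limma adjusted p 0.145). At 38.7% GC its transcript had the lowest GC content of the 10.

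Napsa (ENSMUSG00000002204.9, chromosome 7, 44572380 to 44586862, plus strand) encodes napsin A, an aspartic protease that processes the SP-B precursor. Its counts were 14936, 14407 and 14859 in wildtype and 11503, 16022 and 13066 in Col6a1-/- pools. The wildtype pools were tight, with a coefficient of variation of 1.94%, and the Col6a1-/- pools were not, at 17.0%, with the highest and the lowest of the 6 values. The mean was 91.8% of wildtype (log2 fold change -0.14, SE 0.12, limma adjusted p 0.537).

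Lpcat1 (ENSMUSG00000021608.15, chromosome 13, 73467197 to 73516422, plus strand) encodes the acyltransferase that makes the dipalmitoyl phosphatidylcholine of surfactant. Counts of 17424, 17620.4 and 16402.5 in wildtype pools stood above 15214.5, 15779 and 15757 in Col6a1-/- pools. The 6 libraries did not overlap, but the gap was small. The mean was 90.9% of wildtype (log2 fold change -0.14, SE 0.09, limma adjusted p 0.385).

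Slc34a2 (ENSMUSG00000029188.14, chromosome 5, 53038081 to 53071664, plus strand) encodes the sodium-phosphate cotransporter that clears phosphate released from surfactant phospholipid, and its loss leads to phosphate stones in the alveoli. Counts were 83661, 83835 and 80738 in wildtype pools and 73968, 69755 and 67125 in Col6a1-/- pools. All Col6a1-/- values lay below all wildtype values. The mean was 84.9% of wildtype (log2 fold change -0.24, SE 0.11, limma adjusted p 0.255), and the unadjusted p was 0.0542. The estimate was -0.23 with the male share as a covariate and -0.15 with the length and GC trend removed.

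Etv5 (ENSMUSG00000013089.15, chromosome 16, 22381309 to 22439719, minus strand) encodes an ETS transcription factor downstream of FGF and ERK signals that maintains type 2 cell identity. Its counts were 4978, 4986 and 4475 in wildtype and 4443, 4818 and 4096 in Col6a1-/- pools, with overlap. The mean was 92.5% of wildtype (log2 fold change -0.11, SE 0.09, limma adjusted p 0.506). With the length and GC trend removed the estimate was -0.01.

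The level of the 10 genes in each pool was summarised over the genes. As the mean of log2 values centred on the 6 libraries, their level was 0.11, 0.09 and 0.02 in wildtype pools 1, 2 and 3 and -0.13, -0.01 and -0.08 in the Col6a1-/- pools. The groups did not overlap, and Col6a1-/- pool 1 was the lowest. Levels of several gene lists described below did not overlap either, among them those of surfactant clearance, transcription factors, ciliated cells and alveolar macrophages. The level of the other type 2 cell genes did overlap. Wildtype pool 3 held the lowest wildtype value for 8 of the 10 genes. Among the Col6a1-/- pools, pool 1 was lowest for 6 genes and pool 2 highest for 5. Within the mixed-sex pools, both Col6a1-/- pools lay below wildtype pool 3 for 9 of the 10 genes, all but Sftpc, with a single wildtype pool and no spread for that genotype. The share of all tested genes that did so was not computed, so the count cannot be read as particular to these genes. In that comparison Abca3 stood at 87.8% and Napsa at 82.7% of wildtype pool 3. The fit with the male share as a covariate gave log2 fold changes of 0.090 for Sftpc, -0.050 for Sftpa1, -0.099 for Sftpd, -0.077 for Lpcat1 and -0.30 for Napsa. In that fit 1 of the 10 estimates was above 0, and the median was -0.11 over the 10 and 0.00078 over all tested genes.

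The level of the 10 genes was also set against other epithelial genes in the same library. Relative to 18 pan-epithelial genes it was 0.09, 0.08 and 0.15 in wildtype pools and -0.10, -0.11 and -0.11 in Col6a1-/- pools on the log2 scale, a difference of -0.22. Relative to 18 type 1 cell genes the difference was -0.09, with values of 0.08, 0.06 and 0.003 in wildtype and -0.07, -0.07 and -0.01 in Col6a1-/- pools. No test was made of these differences.

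Transcript length and GC content moved with the fold change in these libraries. Over 12730 genes with a mean count of at least 100, Spearman's rho of the fold change was -0.35 with the length of the longest transcript and -0.35 with its GC content, a correlation across genes, which are not independent replicates. Abca3 has the longest transcript of the 10, at 6476 bases and 54.8% GC, and Sftpc the shortest at 792 bases, against a median of 3464 bases over those genes. With a smooth trend on both removed, the estimates of the 10 genes ran from -0.29 (Sftpb) to -0.01 (Etv5). All were below 0 with a median of -0.19, against a median of -0.0026 over all genes in that fit. None of the 10 passed the limma threshold (0.493% of all genes in that fit did).

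**Figure D3:**
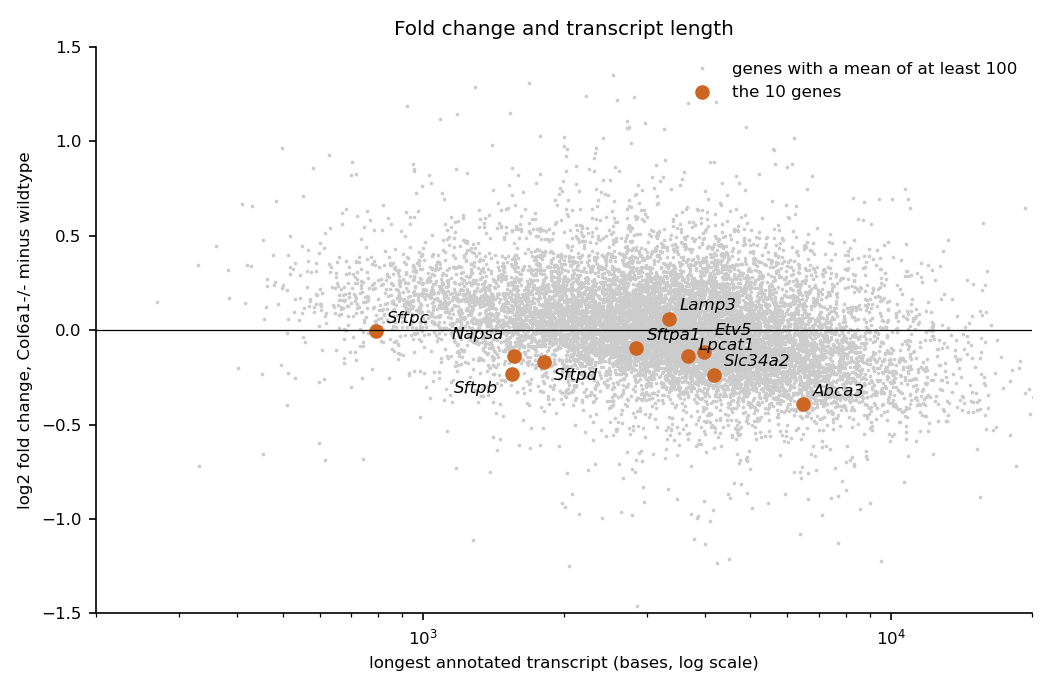
Log2 fold change against the length of the longest transcript (bases, log axis) for genes with a mean normalized count of at least 100 (grey) and the 10 type 2 cell genes (labelled). Genes outside the axes are not drawn. Longer transcripts tended to lower estimates (rho -0.35), and Abca3 lies lowest and farthest right of the 10.

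Beyond the 10 genes, 24 of 25 other type 2 cell genes passed the filter (Dlk1 did not), and 0 passed the limma threshold. In none of the lists of genes below did a gene pass in the limma fit without covariates or other adjustment, or with edgeR. DESeq2 on the recovered reads called the same genes of these lists as the authors' deposited table. The estimates of the 24 were above 0 for 9 and below 0 for 15, with a median of -0.08. At an unadjusted p under 0.05 stood 3 higher and 5 lower (9.72% and 10.6% of all tested genes), and in the authors' deposited table Hc and Ank3 were called lower. Hc, the complement component C5, had counts of 35432, 33628 and 31035 in wildtype and 28115, 21358 and 25794 in Col6a1-/- pools, without overlap (75.2% of wildtype, limma adjusted p 0.119). Ank3, the scaffold ankyrin G, stood at 67.9% of wildtype (limma log2 fold change -0.59, adjusted p 0.113). The log2 fold changes of Hc and Ank3 with the male share as a covariate were -0.17 and -0.19, against -0.42 and -0.59. Chil1, a secreted chitinase-like protein, stood at 84.3% and Elovl1, an elongase of very long fatty acids, at 85.1%, with limma adjusted p of 0.185 and 0.177. Bex2 stood at 132% with no overlap and a limma adjusted p of 0.123. Elovl1 moved from -0.23 to -0.10 and Bex2 from 0.40 to 0.24 with the same covariate.

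Genes of surfactant lipid synthesis and handling showed no common direction. Of 33, all tested, 18 had estimates above 0 and 15 below, with a median of 0.00, and 0 passed the limma threshold. Chpt1, the choline phosphotransferase of the last step of phosphatidylcholine synthesis, had counts of 1976, 2205 and 3101 in wildtype and 4398, 3502 and 4111 in Col6a1-/- pools. Wildtype pool 3 was well above the other wildtype pools and yet below all 3 Col6a1-/- pools. The mean was 165% of wildtype (log2 fold change 0.74, SE 0.16, limma adjusted p 0.0852). With the male share as a covariate the log2 fold change was 0.48. With the length and GC trend removed it was 0.43 and passed the threshold (limma adjusted p 0.0422), and the authors' deposited table gave an adjusted p of 0.000919.

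Fasn and Acaca, which make fatty acids, had lower means. Fasn, fatty acid synthase, was at 76.1% and Acaca, acetyl-CoA carboxylase, at 80.1% of wildtype, without overlap and with limma adjusted p of 0.128 and 0.132. With the length and GC trend removed their log2 fold changes were -0.14 and -0.11, against -0.39 and -0.32, and with the male share as a covariate -0.22 and -0.099. Plin2, a coat protein of lipid droplets, stood at 80.7%, and Atp11a, a phospholipid flippase, at 78.7% (limma adjusted p 0.127 and 0.123). Plin2 moved from -0.31 to -0.097 with the male share as a covariate, and Atp11a from -0.35 to -0.13 with the length and GC trend removed. In the authors' deposited table Fasn and Atp11a were called lower, with adjusted p of 0.0288 and 0.0353.

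In the list for surfactant clearance and its control, which is not limited to macrophage genes, 11 of 13 genes had estimates below 0. The median was -0.22, and 0 passed the limma threshold. Unadjusted p was under 0.05 for 6, all lower (10.6% of all tested genes were lower at that level). Csf2rb and Csf2rb2 encode the common beta chain of the GM-CSF receptor and its near-identical mouse paralogue, between which reads may be split uncertainly. Csf2rb had counts of 1457, 1467 and 1275 in wildtype and 1080.2, 919.5 and 1009 in Col6a1-/- pools, without overlap (71.6% of wildtype, limma adjusted p 0.0852). Csf2rb2 stood at 68.7% (limma adjusted p 0.0954). Marco, a scavenger receptor, stood at 73.9%, Bach2, a repressor needed for macrophage surfactant handling, at 73.0% and Abcg1, a lipid exporter, at 81.7%, with limma adjusted p of 0.108, 0.103 and 0.115. The authors' deposited table called Csf2rb, Csf2rb2, Marco and Bach2 lower. With the male share as a covariate, 7 of the 13 estimates were below 0 and the median was -0.11. In that fit the log2 fold changes of Csf2rb and Csf2rb2 were -0.28 and -0.33, against -0.48 and -0.55. Those of Marco and Bach2 were -0.60 and -0.51, against -0.44 and -0.46, and that of Abcg1 was -0.21, against -0.29. With the length and GC trend removed those of Bach2 and Abcg1 were -0.27 and -0.11, against -0.46 and -0.29.

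The list of alveolar macrophage genes, which shares Marco, Abcg1 and Pparg with that for clearance, gave like values. Of 14, 13 had estimates below 0, and the summed counts ran from 29588 to 31984 in wildtype and from 25144 to 28456 in Col6a1-/- pools. The authors' deposited table called Marco, Krt79 and Plet1 lower. With the length and GC trend removed, limma called Atp6v0d2, Plet1 and Ear2 lower. The part of macrophage number in the clearance genes was not tested.

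The transcription factors of lung epithelium had estimates above 0 for 15 of 19, with a median of 0.15, and 0 passed the limma threshold. Nkx2-1, the factor whose core sequence stands in the Sftpb and Sftpa1 windows printed above, had counts of 5021, 5208 and 5476 in wildtype and 5796, 6404 and 5950.0 in Col6a1-/- pools. All 3 Col6a1-/- values lay above all wildtype values, at 116% of the wildtype mean, while Sftpb and Sftpa1 stood at 85.4% and 93.8%. A link between these levels in bulk tissue was not tested. The limma adjusted p of Nkx2-1 was 0.204, and its log2 fold change of 0.21 was 0.085 with the male share as a covariate. Id2, an inhibitor of basic helix-loop-helix factors, stood at 133% (limma adjusted p 0.0967) and Nfia at 125% (0.151, limma), while Tfcp2l1 stood at 79.0% (limma adjusted p 0.102) and Klf5 at 80.3% (limma adjusted p 0.236). In the authors' deposited table Id2 was called higher and Tfcp2l1 lower, with adjusted p of 0.0182 and 0.0327. Nfia moved from 0.33 to 0.078 with the male share as a covariate, and Id2 and Tfcp2l1 moved from 0.40 to 0.25 and from -0.34 to -0.19 with the length and GC trend removed.

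In the FGF and ERK axis around Etv5, 11 of 20 genes had estimates above 0 and 9 below, with a median of 0.06 and none past the limma threshold. Fgf7, a mesenchymal growth factor for alveolar epithelium, had counts of 630.4, 674 and 699 in wildtype and 865, 911 and 862 in Col6a1-/- pools. The groups did not overlap, at 132% of wildtype (log2 fold change 0.40, SE 0.09, limma adjusted p 0.0942), but with the length and GC trend removed the value was -0.04. The authors' deposited table called Fgf7 higher with an adjusted p of 0.0238. The feedback inhibitors of the pathway differed in sign, with Spry4 at 86.5%, Il17rd at 86.0%, Spry2 at 114% and Spred1 at 125% of wildtype and limma adjusted p of 0.291, 0.199, 0.321 and 0.296. Spry4 was -0.40 and Il17rd -0.34 on the log2 scale with the male share as a covariate, against -0.20 and -0.22, and with the length and GC trend removed Spry4, Il17rd and Spry2 were -0.065, -0.014 and 0.062. For Spred1 wildtype pool 3 (3394) lay among the Col6a1-/- pools, and its log2 fold change of 0.36 became -0.06 both with the male share as a covariate and in the mixed-sex pools.

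Genes of type 1 cells had estimates below 0 for 13 of 18, with a median of -0.10. Spock2, a proteoglycan of the matrix, stood at 78.2% (limma adjusted p 0.112), Scnn1g, a subunit of the epithelial sodium channel, at 86.0% (0.177, limma) and Pdpn, a membrane glycoprotein of type 1 cells, at 116% (0.204, limma). Col4a3 and Rtkn2 stood at 87.1% and 90.0% of wildtype with limma adjusted p of 0.318 and 0.323. In the authors' deposited table Spock2 was called lower with an adjusted p of 0.0236. With the length and GC trend removed Spock2, Pdpn and Col4a3 were -0.20, 0.13 and 0.0070 on the log2 scale, against -0.36, 0.21 and -0.21, and with the male share as a covariate Col4a3 was -0.38. Genes of the transitional state between type 2 and type 1 cells had estimates below 0 for 9 of 14. Cdkn1a, an inhibitor of the cell cycle, stood at 57.2% and Fn1, fibronectin, at 61.3% (limma adjusted p 0.101 and 0.0686), and both are also made by other cells of the lung. Both were called lower in the authors' deposited table, with adjusted p of 0.00334 for Cdkn1a and 1.25e-05 for Fn1. With the male share as a covariate their log2 fold changes were -0.40 and -0.86, against -0.87 and -0.71, with limma adjusted p of 0.771 and 0.564. In that fit 0 of all tested genes passed. Among the mixed-sex pools, with 1 wildtype pool, the log2 fold changes of Cdkn1a and Fn1 were -0.58 and -0.82. Of the other limma fits over both genotypes, Fn1 passed the threshold with median centring and with no filter on low values. It also passed with library quality weights and without wildtype pool 3 (19.1% and 8.26% of all tested genes passed there). Cdkn1a passed with library quality weights.

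**Figure D4:**
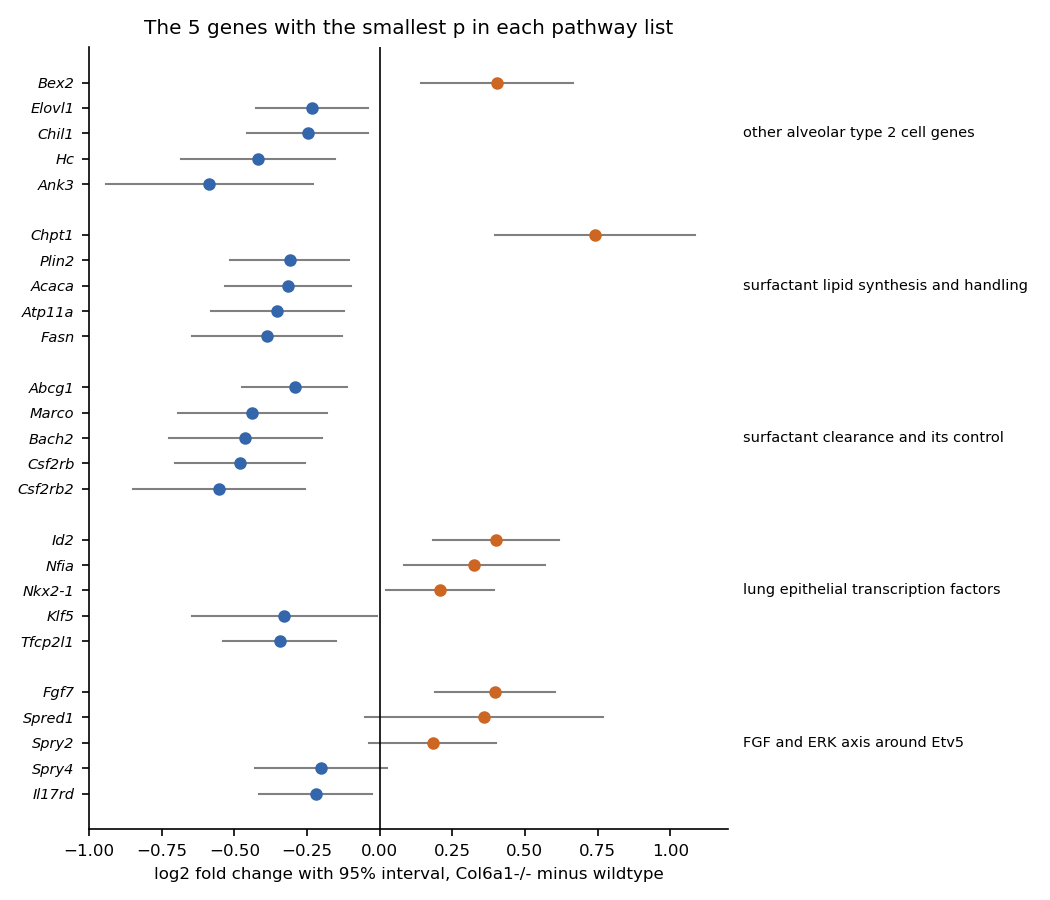
Log2 fold change with its 95% interval (limma, 3 pools per genotype) of the 5 genes with the smallest unadjusted p in each of 5 lists (blue below 0, orange above), Col6a1-/- against wildtype. The 5 genes of clearance lie below 0, and Chpt1 has the highest estimate (0.74); none passed the adjusted threshold.

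Markers of other cells and tissues differed between the libraries and are given beside these results. Pan-epithelial genes had estimates above 0 for 12 of 18, with Epcam at 125% of wildtype (limma adjusted p 0.123). Club cell genes had estimates above 0 for 13 of 16, and their summed counts ran from 605372 to 766412 in wildtype and from 786293 to 998766 in Col6a1-/- pools. Among them Scgb3a2, a secretoglobin, stood at 151% (limma adjusted p 0.0809), with a log2 fold change of 0.59 that was 0.23 with the length and GC trend removed. Ciliated cell genes were above 0 for 11 of 14, with sums of 19129 to 24125 and 23811 to 25986. Capillary endothelial genes were below 0 for 9 of 14, with sums of 256382 to 257935 and 222989 to 243754. Genes of red cells were above 0 for 10 of 10 and those of fat tissue for 9 of 9, with fat sums of 3094 to 7440 in wildtype and 8490 to 13854 in Col6a1-/- pools, and of cardiac muscle for 11 of 12. In the limma fit without covariates or other adjustment, and with edgeR, none of these lists had a gene past the threshold. With the length and GC trend removed, limma called the capillary endothelial gene Plvap lower. It called the red cell gene Hba-a2 and the cardiac muscle genes Mybpc3, Myl4 and Myh6 higher. More were called with library quality weights, where 19.1% of all tested genes passed. In that fit 9 red cell, 7 cardiac muscle, 7 fat tissue, 5 club cell and 2 pan-epithelial genes were higher. Capillary endothelial genes had 4 lower, and ciliated cell genes 2 higher and 2 lower. The authors' deposited table called higher 8 red cell, 5 cardiac muscle, 2 fat tissue, 2 club cell and 2 ciliated cell genes, and lower 3 capillary endothelial genes. Whether a change in the makeup of the tissue moved the 10 genes was not tested.

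**Figure D5:**
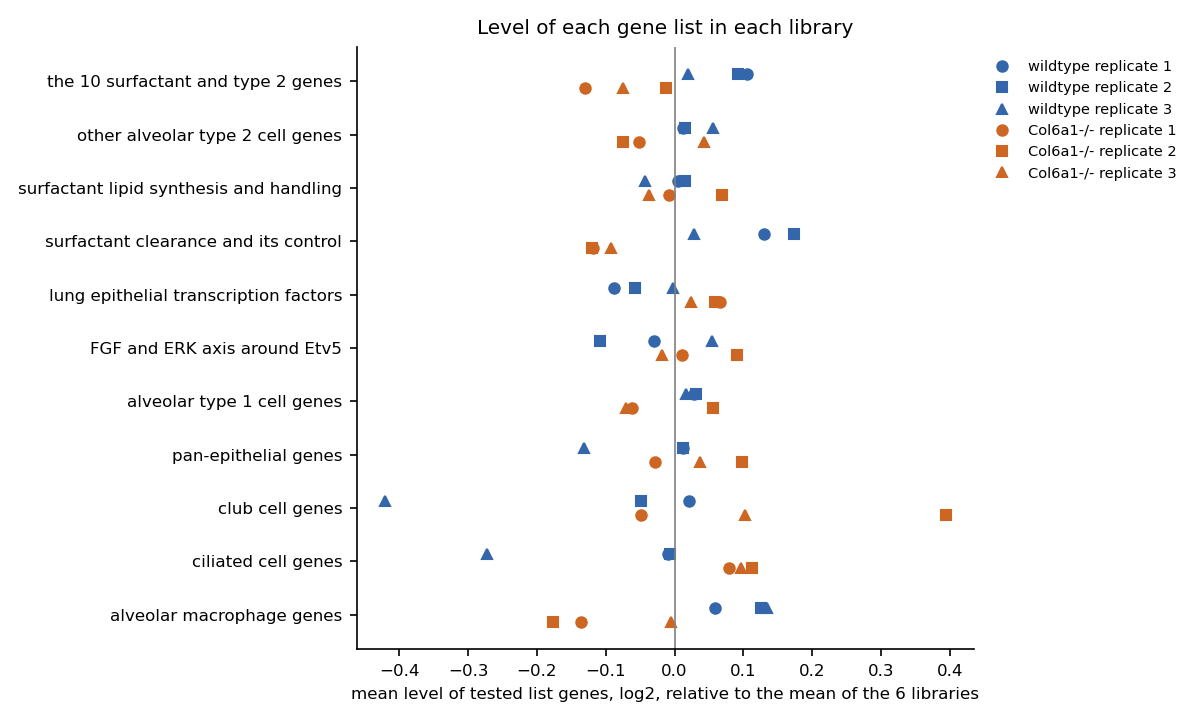
Level of 11 gene lists by library (log2 axis), as the mean of log2 values centred on the 6 libraries, for 3 wildtype and 3 Col6a1-/- pools. The 10 type 2 cell genes spread from -0.13 to 0.11 without overlap between the genotypes, and club cell genes from -0.42 to 0.39 with overlap. The lists of clearance, transcription factor, ciliated cell and alveolar macrophage genes did not overlap either.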

How the data were processed

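RNA of 6 lung libraries, 3 per genotype, was analysed. The table's name gives its values, a signal deposited for each gene and library, as counts that the authors normalized with DESeq2. Per the submitters' processing notes, the tools were STAR 2.5.2b, Trimmomatic 0.36, featureCounts, Subread 1.5.0p3, DESeq2 1.16.1 and R 3.4.1 and the build GRCm38.p5, without roles. The sources used here give neither the strand setting nor the annotation. The values were whole reads divided by a size factor per library (0.911 to 1.25), within 1e-06 of a whole read. The authors' deposited table of the comparison held a score (mean and test statistic), a log2 fold change, a p-value and its adjusted value. One header, that of wildtype pool 2, carries the added word New, of unstated meaning.

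A gene was tested if 3 or more libraries had a normalized count of 10 or more, which held for 16879. The test was two-sided limma-trend on log2(normalized count + 1) with limma 3.58.1 in R 4.3.3 and no covariate, and p was Benjamini-Hochberg adjusted over all of them with a threshold of 0.05. Percentages of wildtype are ratios of mean normalized counts. SE is that of the limma coefficient on the log2 scale, which understates changes of low genes. Alternatives were edgeR 4.0.16 and DESeq2 1.42.0 on the recovered reads, library quality weights, other pseudocounts, filters and scalings, the male share of a pool as a covariate, the replicate number as a block, removal of a spline trend (5 degrees of freedom each) on transcript length and GC, and each library left out. The mixed-sex pools alone were added after seeing the data. The fits were tested on simulated counts, with larger fold changes than those estimated for the 10 genes and without differences of sex or tissue makeup. That test does not show their power or error for differences as small as these.

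The 10 genes and the 22 gene lists were chosen with earlier results of these data known. Genes named with values were the 10, Col6a1, the sex-linked genes and, from each list, up to 3 or 5 genes with the smallest unadjusted p. Their differences are therefore selected. Other genes were named without values, because they passed with the length and GC trend removed, fell below the filter or were shared between lists. Positions and lengths came from GENCODE M21 on GRCm38, matched by symbol for 95.3% of rows, and promoters from RefSeq on GRCm38.p6. The proteins of the 10 genes were not analysed here.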

Additional observations from a re-analysis of the deposited data

How the results depend on the processing

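The median log2 fold change of the 10 genes stayed between -0.19 and -0.10 under all 19 alternatives and never differed from -0.14 by more than the spread between pools. Of 190 values of the 10 genes under the alternatives, 178 kept their sign and side of the threshold, 9 turned in sign and 3 came to pass it. The 3 were Abca3, so that 1 of the 10 genes was called with library quality weights, with DESeq2 on the recovered reads and without wildtype pool 3 (0 to 1 over the libraries left out). Sftpc turned from -0.00 to 0.0032 with DESeq2, 0.090 with the male share as a covariate, 0.055 in the mixed-sex pools and -0.080 to 0.12 over the libraries left out. Lamp3 turned from 0.06 to -0.031 with the male share, -0.042 in the mixed-sex pools and -0.28 with the length and GC trend removed. Spred1 turned to -0.061 with the male share and -0.060 in the mixed-sex pools, and Fgf7 to -0.035 and Col4a3 to 0.0070 with the trend removed. The cause of these turns was not tested. Of all genes, 11 were called, against 93 with no filter on low values, 7 with a filter at 50, 26 with median centring (3 higher and 23 lower, against 3 and 8), 3225 with library quality weights, 742 with DESeq2, 81 with the trend removed and 341 in the mixed-sex pools, an alternative chosen after seeing the data. The male share as a covariate left 0 by limma (1298 at an unadjusted p under 0.05). Over the libraries left out, limma called 0 to 1383 genes: 0 without wildtype pool 1 or Col6a1-/- pool 3 (1902 and 1979 at an unadjusted p under 0.05), 2 without wildtype pool 2, 13 without Col6a1-/- pool 1, 47 without Col6a1-/- pool 2 and 1383 without wildtype pool 3. With the replicate number as a block 7 genes and none of the 10 were called. Deviations of same-numbered pools from their genotype means correlated at -0.136, 0.106 and -0.006, and not every pool correlated best with its own number. Deviations from a mean of 3 pools are tied to one another, so these values cannot decide whether the numbers pair the pools. With 3 pools per genotype and at least 4097 reads per gene and library, the spread between pools and not the depth limits what can be told for these genes.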

Other observations

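Outside the type 2 cell, genes of the fibroblasts beside it did not share a direction. Of 14 fibroblast genes, 5 had estimates above 0 and 9 below. Dcn and Lum, which encode small leucine-rich proteoglycans of the matrix, were called higher in the authors' deposited table, by 0.43 (adjusted p 0.000788) and 0.58 (adjusted p 0.0037) on the log2 scale. With the length and GC trend removed the limma log2 fold changes of Dcn and Lum were 0.12 and 0.49, against 0.47 and 0.72. Genes of smooth muscle and pericytes had estimates below 0 for 11 of 12, with none past the limma or edgeR threshold. At an unadjusted limma p under 0.05 stood 3 of the 12, all lower, and 10.6% of all tested genes were lower at that level. B and T cell genes had estimates below 0 for 9 of 12, among them Pax5, a factor of B cell identity, with an adjusted p of 1.21e-05 in the authors' deposited table.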
